A study of Mus musculus with 15 samples.

Results

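Map3k15 and 7 further genes of the MAP kinase cascade (Map3k5, Map3k6, Mapk3, Map2k1, Map2k2, Braf and Dusp6) were followed in every library of the study. Their rows were taken by gene symbol from both deposited tables, and all 8 genes were found among the 16470 genes listed for DMSO and among the 16428 listed for ibrutinib. RNA came from B-cells of tumor-burdened spleens of mice backcrossed for 5 generations to C57BL/6. The cells were kept in culture for 24 h with vehicle (DMSO) or with 5 μM ibrutinib, an inhibitor of the kinase Btk. All mice carried the Eμ-TCL1 transgene, in which the Eμ enhancer directs the TCL1 oncogene to B-cells, and those of the second genotype, Eμ-TCL1;p53R172H/+, had 1 mutant and 1 normal allele of Trp53. The DMSO table held 3 Eμ-TCL1 libraries (replicates 2, 3 and 4) and 5 Eμ-TCL1;p53R172H/+ libraries (replicates 1 to 5). The ibrutinib table held 3 Eμ-TCL1 libraries (replicates 1, 3 and 4) and 4 Eμ-TCL1;p53R172H/+ libraries (replicates 1, 3, 4 and 5). The age of these mice is not given in the sources used here, nor whether each replicate was a separate mouse, so p-values measure only the spread between these samples.

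In a MAP kinase cascade, a MAP3K phosphorylates a MAP2K, which phosphorylates a MAP kinase. The Ras-driven branch runs from Raf kinases such as Braf through Mek1 and Mek2 (Map2k1, Map2k2) to Erk kinases such as Erk1 (Mapk3), and it is switched on by B-cell receptor signaling through Btk and related kinases. Map3k5, Map3k6 and Map3k15 encode the apoptosis signal-regulating kinases Ask1, Ask2 and Ask3, which respond to oxidative and other stress and act on the JNK and p38 branches, and Dusp6 encodes a phosphatase that is induced by Erk activity and inactivates Erk.

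Every value below is a read count of a gene that the authors scaled to the effective size of its library (CPM) and rounded to 0.1, called its level here. The scaling was set separately in each table, so no level in ibrutinib was tested against one in DMSO. The log2 change is that of Eμ-TCL1;p53R172H/+ relative to Eμ-TCL1 on the log2(level + 1) scale, which understates the change of low genes, and its adjusted p is from limma with Benjamini-Hochberg adjustment over all genes of the table, with a threshold of 0.05. A two-sided exact permutation test was also run on each gene, and it cannot give a p under 0.0179 with the 56 splits of the DMSO libraries or under 0.0286 with the 35 splits of the ibrutinib libraries.

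The targeted gene and the cell markers were examined before the 8 genes. In ibrutinib, Trp53 had a level of 28.8 ± 6.26 (SD, n = 3) in Eμ-TCL1, against 36.4 ± 3.26 (SD, n = 4) with the mutant allele, and in DMSO the 2 levels were 41.9 ± 14.0 (SD, n = 3) and 57.8 ± 5.65 (SD, n = 5). The genotypes overlapped in both tables, and since a gene has 1 value for both of its alleles, the level does not check the labels. The summed level of 7 B-cell markers ranged from 58.1 to 5501 over the 15 libraries, which goes against a uniform B-cell label. Eμ-TCL1 replicate 2 in DMSO and Eμ-TCL1 replicate 1 in ibrutinib had a summed level of 11 myeloid markers of 29476 and 20934, against at most 1168 in any other library, and 7 erythroid markers summed to 17270 and 14990 there, against at most 256 elsewhere. Eμ-TCL1;p53R172H/+ replicates 1 and 2 in DMSO and replicate 1 in ibrutinib had 12 T-cell markers at 3251, 4024 and 2199, against 241 to 1314 elsewhere, and B-cell markers at only 58.1 to 240.2. None of the 7 B-cell or 12 T-cell markers was at 0 in any library. With these 5 libraries set aside, the changes of the 8 genes are also given over the 10 libraries low in T-cell and myeloid markers, in which each of these sums was at most 2000, a limit chosen after seeing the data. The libraries also differed by sex, since the Y-linked gene Ddx3y was at 0 in all Eμ-TCL1 libraries but above 75 in Eμ-TCL1;p53R172H/+ replicates 1, 2 and 4 in DMSO and 1, 3 and 4 in ibrutinib. Replicate 3 of that genotype thus differed in sex between the tables, so this number cannot stand for 1 mouse in both. In these bulk samples, fewer cells of a type and less RNA per cell cannot be told apart.

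Map3k15, which encodes Ask3, was lower in every Eμ-TCL1;p53R172H/+ library than in any Eμ-TCL1 library of the same table. The gene lies on chromosome X of GRCm38 from 159988433 to 160123351 on the plus strand. In DMSO, its level was 29.6, 26.9 and 15 in Eμ-TCL1 replicates 2, 3 and 4. In Eμ-TCL1;p53R172H/+ replicates 1 to 5 it was 5.5, 4.9, 2.8, 3.1 and 3.0. The highest Eμ-TCL1;p53R172H/+ library stayed well under the lowest Eμ-TCL1 library, and the 2 highest of that genotype were the T-cell-rich replicates 1 and 2. The means were 23.8 ± 7.77 (SD, n = 3) and 3.86 ± 1.25 (SD, n = 5). The change in the mean of log2(level + 1) was -2.33 with a standard error of 0.34, which is 5.04-fold lower on that scale. It missed the threshold (limma, adjusted p = 0.0836). The exact permutation test gave its smallest possible p, 0.0179.

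In ibrutinib, the Map3k15 level was 18.5, 38.5 and 30.0 in Eμ-TCL1 replicates 1, 3 and 4. It was 7.5, 9.3, 9.1 and 8.3 in Eμ-TCL1;p53R172H/+ replicates 1, 3, 4 and 5. Again the genotypes did not overlap, and the lowest Eμ-TCL1 library was the myeloid-rich replicate 1. The means of 29.0 ± 10.04 (SD, n = 3) and 8.55 ± 0.823 (SD, n = 4) stood beside a log2 change of -1.60 (standard error 0.26), which is 3.02-fold lower on the log2(level + 1) scale (limma, adjusted p = 0.165). The exact permutation test gave p = 0.0286, again the smallest possible. Without Eμ-TCL1 replicate 1, the log2 change in ibrutinib was -1.88 and passed the threshold (limma, adjusted p = 0.0459). Over the libraries low in T-cell and myeloid markers (Eμ-TCL1 replicates 3 and 4 and Eμ-TCL1;p53R172H/+ replicates 3, 4 and 5 of each table), the log2 change of Map3k15 was -2.41 in DMSO and -1.82 in ibrutinib (limma, adjusted p = 0.0879 and 0.0714), so the change was as large without the myeloid-rich and T-cell-rich libraries. Among those libraries the summed B-cell markers were still higher in Eμ-TCL1, at 4242 and 5501 against 2918 to 3982 in DMSO. In ibrutinib they stood at 2299.5 and 2836 against 473 to 1335, and the summed T-cell markers at 241 and 654 against 684 to 1314. Eμ-TCL1;p53R172H/+ replicate 3 in ibrutinib, though kept, had a higher sum of T-cell markers (1314) and of myeloid markers (1168) than of B-cell markers (473). The part of any of these cell types in the result was not tested. Over female libraries alone the log2 change of this X-linked gene was -2.62 in DMSO, with 3 Eμ-TCL1 and 2 Eμ-TCL1;p53R172H/+ libraries (limma, adjusted p = 0.168). In ibrutinib it was -1.63 (limma, adjusted p = 0.9999), where the 3 Eμ-TCL1 libraries met only 1 female library of the other genotype, which is assumed to vary like them.

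**Figure D1:**
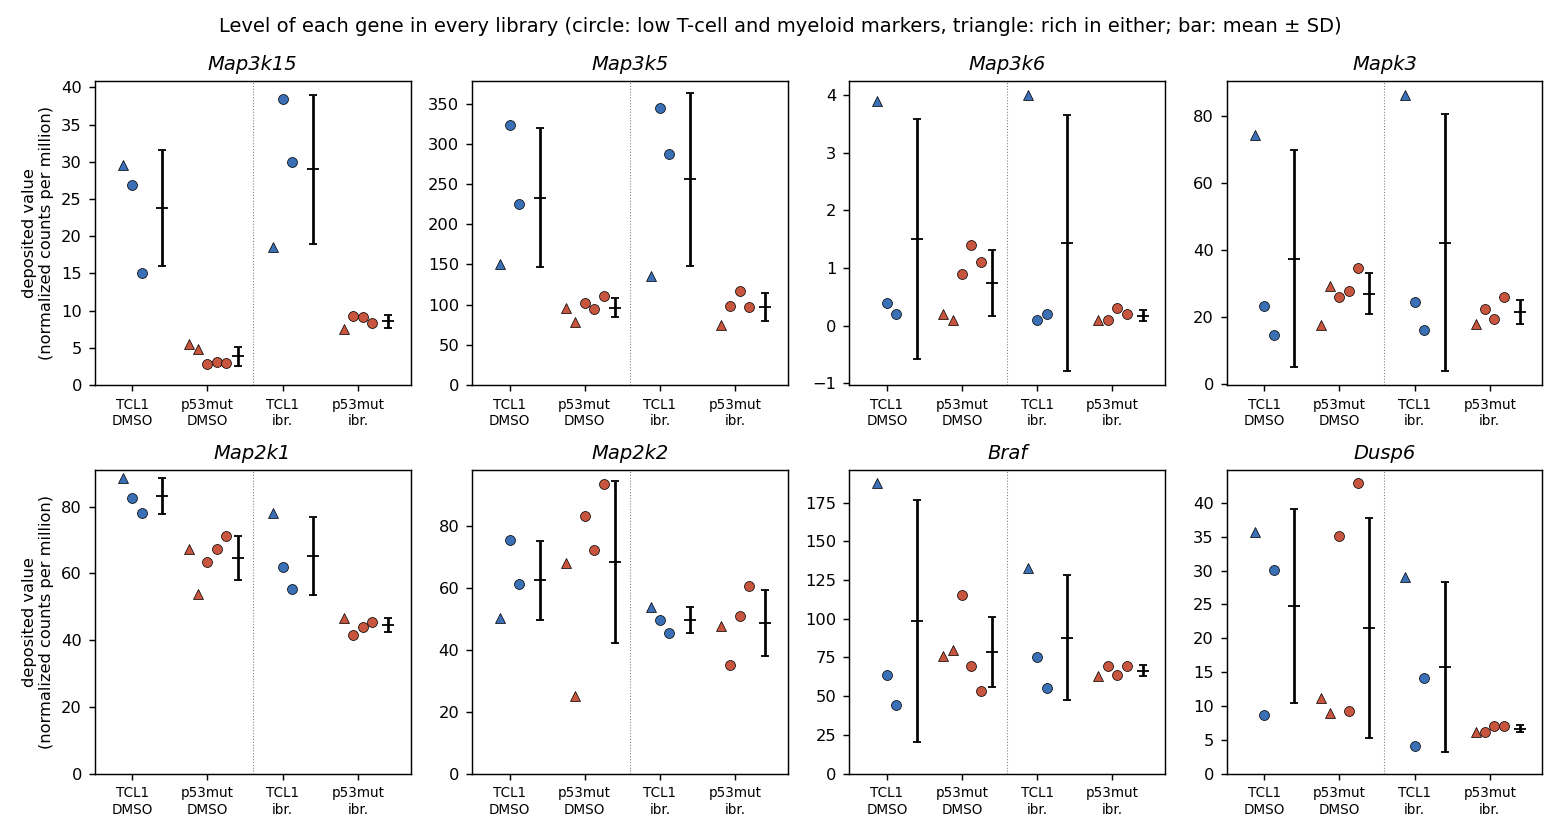
Level (authors' normalized CPM) of the 8 genes in every library, by genotype and treatment, with TCL1 standing for Eμ-TCL1 and p53mut for Eμ-TCL1;p53R172H/+; circles are libraries low in T-cell and myeloid markers, triangles those rich in either, and the bars give the mean ± SD. Map3k15, Map3k5 and Map2k1 do not overlap between genotypes in either table, while the single high triangles of Map3k6, Mapk3 and Braf are the myeloid-rich Eμ-TCL1 libraries.

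The 3′ end of Map3k15 overlaps Pdha1, a subunit gene of pyruvate dehydrogenase on the opposite strand, over 1143 bases, of which 603 lie in Map3k15 exons. The sources used here do not say whether counting used strand, and without strand, reads from these bases cannot be told apart. The Pdha1 level ranged from 48.2 to 116 over all libraries, overlapped between genotypes in both tables, and had log2 changes of 0.04 and 0.10 in DMSO and ibrutinib (limma, adjusted p = 0.960 and 0.839). The primers that the study designed for Map3k15 are shown because they place its PCR assay away from this overlap. Both lie in coding exon 5 of the 29 exons of ENSMUST00000033665.8, the forward one at chrX:160044121-160044142 and the reverse one, which reads the opposite strand, at chrX:160044176-160044198 (GRCm38), and no PCR values were analysed here.
Map3k15 forward primer: tgatgaactggcgaaagagttg
Map3k15 reverse primer: atgatgatgtccgatgtcagaac

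Map3k5, which encodes Ask1, was the other stress MAP3K that was lower in every Eμ-TCL1;p53R172H/+ library. In DMSO its level was 151.2, 323.1 and 225.5 in Eμ-TCL1 replicates 2, 3 and 4. In Eμ-TCL1;p53R172H/+ replicates 1 to 5 it was 95.8, 78.9, 101.5, 94.8 and 110.6, a narrow range that included both the T-cell-rich and the B-cell-rich libraries. The means of 233 ± 86.2 (SD, n = 3) and 96.3 ± 11.6 (SD, n = 5) stood beside a log2 change of -1.21 (standard error 0.26), which is 2.31-fold lower on the log2(level + 1) scale (limma, adjusted p = 0.286). The p of the exact permutation test was 0.0179. In ibrutinib the level of Map3k5 was 136.0, 344.4 and 287.6 in Eμ-TCL1 against 74.1, 98.9, 116.6 and 96.8 in Eμ-TCL1;p53R172H/+. The lowest Eμ-TCL1 library of each table was the myeloid-rich one, and it still exceeded every Eμ-TCL1;p53R172H/+ library. The log2 change was -1.31 (standard error 0.34), which is 2.48-fold lower on the same scale (limma, adjusted p = 0.258). Over the libraries low in T-cell and myeloid markers, the log2 change of Map3k5 was -1.39 in DMSO and -1.59 in ibrutinib (limma, adjusted p = 0.0969 and 0.0714).

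Map3k6, which encodes Ask2, was close to the rounding step of the tables in most libraries. In DMSO its level was 3.9, 0.4 and 0.2 in Eμ-TCL1 against 0.2, 0.1, 0.9, 1.4 and 1.1 in Eμ-TCL1;p53R172H/+. In ibrutinib it was 4.0, 0.1 and 0.2 in Eμ-TCL1 against 0.1, 0.1, 0.3 and 0.2 in Eμ-TCL1;p53R172H/+. The myeloid-rich Eμ-TCL1 library was the highest of each table. The genotypes overlapped, and the log2 change of -0.28 in DMSO (limma, adjusted p = 0.850) turned to 0.71 over the libraries low in T-cell and myeloid markers. In ibrutinib the log2 change of Map3k6 was -0.68 over all libraries (limma, adjusted p = 0.589) and 0.06 over those low in T-cell and myeloid markers.

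In the Ras-driven branch, Map2k1 (Mek1) was lower in Eμ-TCL1;p53R172H/+, whereas Braf, Map2k2 (Mek2) and Mapk3 (Erk1) overlapped between genotypes. The Map2k1 level in DMSO was 88.7, 82.5 and 78.1 in Eμ-TCL1 against 67.4, 53.8, 63.3, 67.2 and 71.1 in Eμ-TCL1;p53R172H/+. With ibrutinib the values were 78.2, 62.0 and 55.3 in Eμ-TCL1 against 46.6, 41.7, 44.0 and 45.4 in Eμ-TCL1;p53R172H/+. The genotypes did not overlap in either table, though the gap was small. The log2 change of Map2k1 was -0.36 in DMSO (standard error 0.17, limma, adjusted p = 0.629) and -0.53 in ibrutinib (standard error 0.16, limma, adjusted p = 0.316), and the exact permutation test gave p = 0.0179 and 0.0286. The myeloid-rich libraries were the highest here too, and over the libraries low in T-cell and myeloid markers the log2 change was -0.25 and -0.41.

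Mapk3 was highest in the 2 myeloid-rich libraries. Its level in DMSO was 74.5, 23.3 and 14.8 in Eμ-TCL1 against 17.6, 29.3, 26.1, 28.0 and 34.6 in Eμ-TCL1;p53R172H/+. In ibrutinib it was 86.4, 24.5 and 16.1 in Eμ-TCL1 against 18.1, 22.4, 19.5 and 26.1 in Eμ-TCL1;p53R172H/+. Apart from replicate 2 in DMSO and replicate 1 in ibrutinib, the Eμ-TCL1 libraries lay within or under the range of the other genotype. The log2 change of -0.16 in DMSO (limma, adjusted p = 0.917) and -0.59 in ibrutinib (limma, adjusted p = 0.629) became 0.63 and 0.17 over the libraries low in T-cell and myeloid markers. The part of myeloid cells in these levels was not tested.

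Braf showed the same 2 libraries at the top. Its level was 187.8, 63.4 and 44.4 in Eμ-TCL1 against 75.9, 79.6, 115.1, 69.5 and 53.2 in Eμ-TCL1;p53R172H/+ in DMSO. Under ibrutinib it stood at 132.8, 75.3 and 55.2 in Eμ-TCL1 against 63.0, 69.6, 63.9 and 69.4 in Eμ-TCL1;p53R172H/+. The log2 change was -0.09 and -0.30 (limma, adjusted p = 0.957 and 0.647), and 0.50 and 0.07 over the libraries low in T-cell and myeloid markers. An overlap of 146 exonic bases with Ndufb2, a gene of respiratory complex I on the opposite strand, touches Braf, and Ndufb2 had levels of at most 27.1.

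Map2k2 differed little between genotypes in either table. Its level in DMSO was 50.3, 75.5 and 61.3 in Eμ-TCL1 against 68.0, 25.1, 83.2, 72.1 and 93.6 in Eμ-TCL1;p53R172H/+, so replicate 2 of the latter, a T-cell-rich library, held the lowest level and replicate 5 the highest. With ibrutinib the values were 53.9, 49.7 and 45.5 in Eμ-TCL1 against 47.8, 35.2, 50.8 and 60.7 in Eμ-TCL1;p53R172H/+. The log2 change of Map2k2 was 0.03 (standard error 0.41) in DMSO and -0.05 (standard error 0.20) in ibrutinib (limma, adjusted p = 0.986 and 0.923), and 0.27 and 0.0051 over the libraries low in T-cell and myeloid markers.

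Dusp6, whose transcript follows Erk activity, split the libraries of both genotypes in DMSO. Its level was 35.7, 8.6 and 30.1 in Eμ-TCL1 replicates 2, 3 and 4. In Eμ-TCL1;p53R172H/+ replicates 1 to 5 it was 11.2, 8.9, 35.1, 9.3 and 42.9. Each genotype thus had low and high libraries, with none between 11.2 and 30.1, and among the B-cell-rich Eμ-TCL1;p53R172H/+ libraries replicate 4 stood apart from replicates 3 and 5. In ibrutinib the level of Dusp6 was 29.1, 4.1 and 14.1 in Eμ-TCL1 against 6.2, 6.2, 7.1 and 7.1 in Eμ-TCL1;p53R172H/+, which is an even level in the latter and a wide one in Eμ-TCL1. The log2 change was -0.29 (standard error 0.67) in DMSO and -0.79 (standard error 0.55) in ibrutinib (limma, adjusted p = 0.888 and 0.568). Over the libraries low in T-cell and myeloid markers, the log2 change of Dusp6 turned to 0.55 in DMSO and was -0.17 in ibrutinib. Single Eμ-TCL1 libraries moved the value in ibrutinib, which was -0.20 without replicate 1 and -1.48 without replicate 3 (limma, adjusted p = 0.864 and 0.328).

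**Figure D2:**
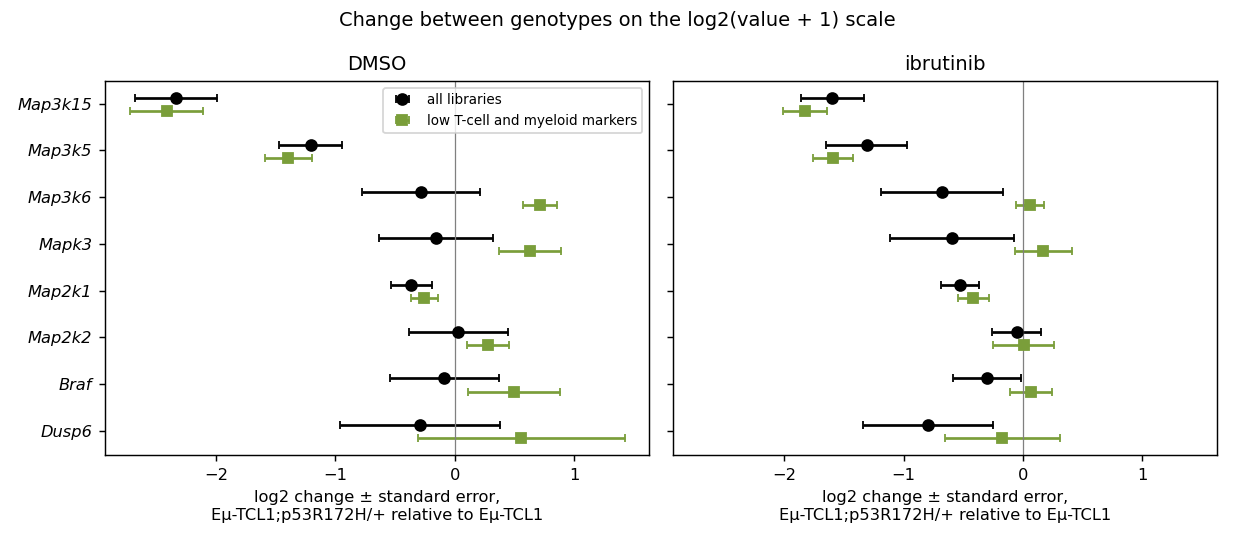
Log2 change of each gene in Eμ-TCL1;p53R172H/+ relative to Eμ-TCL1, with its standard error, over all libraries (black circles) and over those low in T-cell and myeloid markers (green squares), in DMSO and in ibrutinib. Map3k15, Map3k5 and Map2k1 stay below 0 in both sets of libraries. Map3k6, Mapk3 and Braf move from negative to positive values in both treatments, as do Dusp6 in DMSO and Map2k2 in ibrutinib.

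None of the 8 genes passed the adjusted threshold in either table over all libraries, beside 0.0121% of all genes in DMSO (2 genes) and 0% in ibrutinib. At an unadjusted p under 0.05, limma called 2 of the 8 lower and 0 higher in DMSO, where 4.65% of all genes were called lower and 3.52% higher. In ibrutinib it called 3 of the 8 lower and 0 higher, beside 6.32% and 5.69% of all genes. Map3k15, Map3k5 and Map2k1 (3 of the 8) did not overlap between genotypes in either table and were lower in Eμ-TCL1;p53R172H/+, beside 2.93% of all genes in DMSO and 5.97% in ibrutinib. None was higher without overlap, beside 3.52% and 6.68%. The 8 genes were chosen with earlier results of these data known, so these are not counts over genes picked blind. The same 3 genes were lower without overlap in both tables, as were 1.34% of the 15869 genes that both tables list. These tables are not independent, because libraries of 1 genotype with the same number deviated from their group means together across genes, with a correlation between 0.71 and 0.84 in 5 of 6 such pairs and of -0.10 in Eμ-TCL1;p53R172H/+ replicate 3. Over the libraries low in T-cell and myeloid markers, 3 of the 8 were lower and 2 (Map3k6 and Mapk3) higher without overlap in DMSO, beside 16.2% and 16.5% of all genes, and 3 lower and 0 higher in ibrutinib, beside 18.7% and 15.2%. The median log2 change of the 8 genes was -0.29 in DMSO and -0.64 in ibrutinib, beside 0.04 and -0.05 over all genes. Over the libraries low in T-cell and myeloid markers these medians were 0.39 and -0.08, beside 0 and -0.01 over all genes, so the sign in DMSO turned.

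Whether the genotype difference itself changed with ibrutinib was tested as an interaction over all 15 libraries. For Map3k15 the change was 0.74 less negative on the log2 scale in ibrutinib (standard error 0.42, unadjusted p = 0.102 from limma). None of the 8 passed the adjusted threshold, as was so for 0% of all genes, and none had an unadjusted p under 0.05, beside 0.523% of all genes. This fit counted libraries of 1 genotype and number as independent although they deviated together, so it shows neither that the genotype change differed between treatments nor that it was alike.

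Each gene was also set against 5 genes of the Ras-driven branch in its own library (the mean log2(level + 1) of Araf, Braf, Map2k1, Map2k2 and Mapk3, without the gene itself). The added 1 makes this ratio depend on the scaling of a library where a gene is low, as for Map3k15 and Map3k6. The 5 genes are not an even reference either, since Map2k1 was lower in Eμ-TCL1;p53R172H/+ and Braf and Mapk3 were highest in the myeloid-rich Eμ-TCL1 libraries. For Map3k15 this log2 ratio was -1.41 ± 0.23 (SD, n = 3) in Eμ-TCL1 against -3.69 ± 0.49 (SD, n = 5) in Eμ-TCL1;p53R172H/+ in DMSO, a difference of -2.28 (p = 0.0179, exact permutation test). In ibrutinib it was -0.99 ± 0.87 (SD, n = 3) and -2.28 ± 0.20 (SD, n = 4), a difference of -1.30 (p = 0.0286, exact permutation test). The ratio of Map3k15 thus did not overlap between genotypes in either table, and its lowest Eμ-TCL1 value, -1.996, was that of the myeloid-rich library in ibrutinib, close to the highest Eμ-TCL1;p53R172H/+ value there, -2.07. For Map3k5 the difference in the ratio was -1.15 in DMSO (p = 0.0179, exact permutation test) and -1.01 in ibrutinib, where the genotypes overlapped (p = 0.171, exact permutation test). For Map2k1 it was -0.39 in DMSO, where the genotypes overlapped (p = 0.0714, exact permutation test), and -0.28 in ibrutinib, where they did not (p = 0.0286, exact permutation test). For the remaining 5 genes the exact permutation p was between 0.286 and 1.

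**Figure D3:**
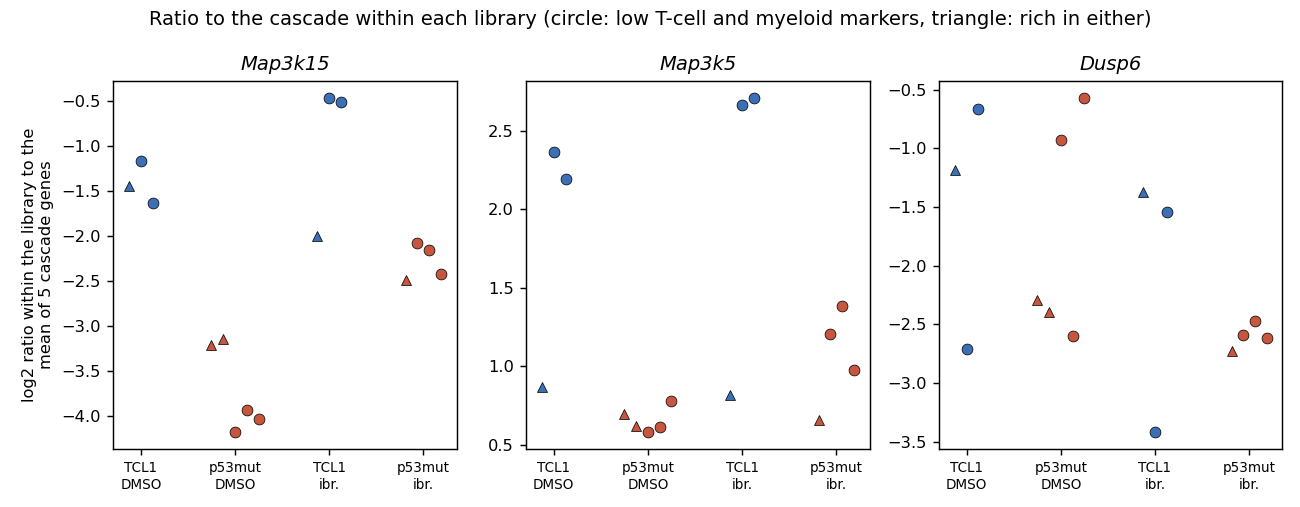
Log2 ratio of Map3k15, Map3k5 and Dusp6 to the mean of 5 genes of the Ras-driven branch in the same library, by genotype and treatment (circles, low in T-cell and myeloid markers; triangles, rich in either; TCL1, Eμ-TCL1; p53mut, Eμ-TCL1;p53R172H/+). Map3k15 lies between -1.63 and -1.17 in Eμ-TCL1 and between -4.17 and -3.14 in Eμ-TCL1;p53R172H/+ in DMSO, and Dusp6 overlaps between genotypes in both tables.

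Per kilobase of exon, the order of the 8 genes was led by Map3k5 in Eμ-TCL1, at 38.3 ± 14.2 (SD, n = 3) level units per kilobase in DMSO, followed by Map2k1 at 24.5 ± 1.57 and Mapk3 at 16.6 ± 14.3, each overlapping the next in its range. In Eμ-TCL1;p53R172H/+ in DMSO, Map2k1 came to the top at 19.04 ± 1.95 (SD, n = 5) per kilobase, with Map3k5 next at 15.8 ± 1.90. These neighbours overlapped in their ranges, as did Map2k2 at 12.1 ± 4.62 and Mapk3 at 12.02 ± 2.74. Below them came Dusp6 at 6.86 ± 5.19 and Braf at 5.67 ± 1.64, which also overlapped. Map3k15 was the 7th of the 8 in DMSO in both genotypes, at 5.48 ± 1.79 per kilobase in Eμ-TCL1, where its range met those of Braf and Dusp6, and at 0.888 ± 0.287 in Eμ-TCL1;p53R172H/+, where it lay under both. Map3k6 was the lowest in all 4 groups. In ibrutinib the order was led by Map3k5 in both genotypes, at 42.1 ± 17.7 (SD, n = 3) and 15.9 ± 2.86 (SD, n = 4) per kilobase, and Map3k15 stood at 6.67 ± 2.31 and 1.97 ± 0.189. The length of a gene merges all its annotated exons, 13862 bases for Braf and 5663 for Map2k2. The level per kilobase is therefore understated where the expressed transcript is shorter, and the order can depend on this choice.

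Across the 15 libraries, after subtracting the mean of each table from log2(level + 1), the 8 genes fell into patterns that are given as a description, since libraries of 1 number and genotype are not independent and the genotype and cell makeup are shared. Map3k15 went with Map3k5 (Pearson r 0.85) and Map2k1 (r 0.71), and had r between -0.12 and 0.19 with each of the other 5. Map3k6, Mapk3 and Braf, which were highest in the myeloid-rich libraries, went together (r 0.91 for Map3k6 with Mapk3, and 0.81 for Mapk3 with Braf). Map2k1, which was highest there too, had r 0.65 with Map3k6, 0.55 with Mapk3 and 0.37 with Braf. Among 10119 genes with a mean level of at least 5 in each table, those with the pattern most like Map3k15 were Raph1 (r 0.93), the immunoglobulin variable genes Ighv1-55 (r 0.92) and Igkv12-89 (r 0.89), Mlec (r 0.89) and Rdh12 (r 0.89). Of these, Ighv1-55 had a mean level of 703 in Eμ-TCL1 against 1.34 in Eμ-TCL1;p53R172H/+ in DMSO, and Mlec 309 and 210. Those most like Map3k6 were Alas1 (r 0.97), Rnf10, Csf2ra, 9530068E07Rik and Rab6a (each r 0.96), and those most like Dusp6 were Hist4h4 (r 0.90), Atrnl1 (r 0.89), Nln (r 0.88), Zak (r 0.87) and Hist2h2bb (r 0.87).

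**Figure D4:**
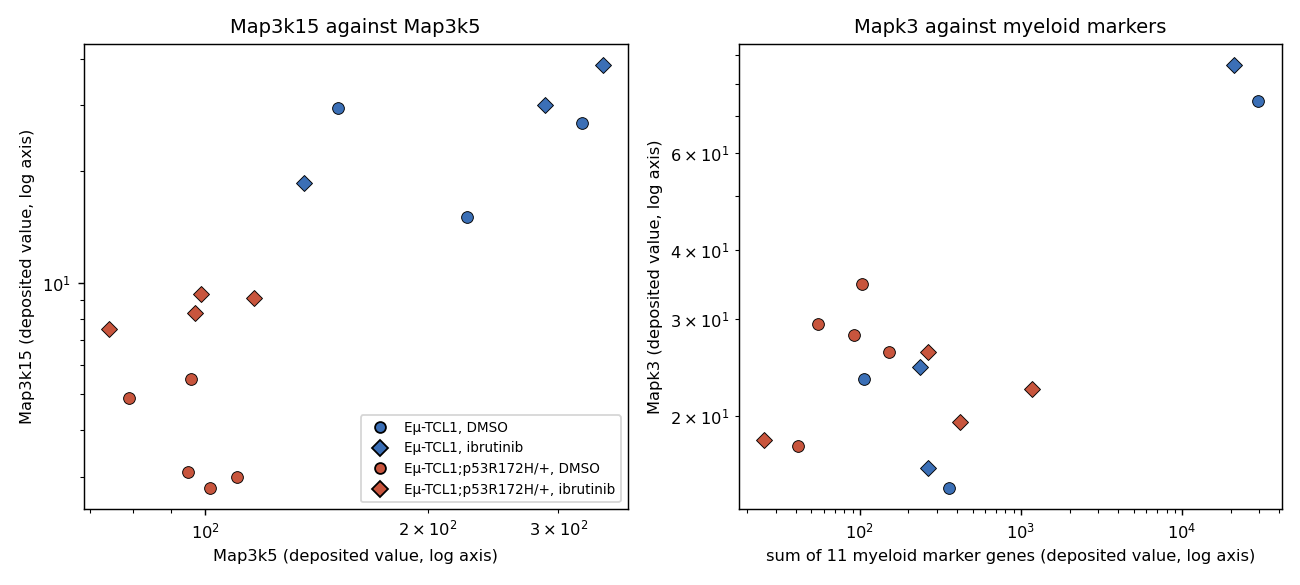
Left, Map3k15 against Map3k5 in the 15 libraries; right, Mapk3 against the sum of 11 myeloid markers (levels in the authors' normalized CPM, all axes log; blue, Eμ-TCL1; red, Eμ-TCL1;p53R172H/+; circles, DMSO; diamonds, ibrutinib, whose table was scaled separately). The Eμ-TCL1;p53R172H/+ libraries lie at the lower left of the first panel, and the libraries with Mapk3 at 74.5 and 86.4 are those with myeloid sums of 29476 and 20934.

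Other genes of the cascade were taken from 10 lists ordered by role, which hold 99 genes other than the 8 that are reported here, of which 94 were measured in each table. None passed the adjusted threshold in either table. In DMSO, limma gave an unadjusted p under 0.05 to 3 lower and 4 higher of the 94 genes, beside 4.65% and 3.52% of all genes. Without overlap, 1 was lower and 3 were higher, beside 2.93% and 3.52%. The DMSO counts are close to these shares and are not read as a trait of the lists. In ibrutinib the counts were 8 lower and 5 higher, beside 6.32% and 5.69% of all genes. Without overlap, 10 were lower and 6 higher there, beside 5.97% and 6.68%. Mapk4, the 1 lower gene in DMSO and 1 of the 10 in ibrutinib, was at 0 in every Eμ-TCL1;p53R172H/+ library. In Eμ-TCL1 it was at only 0.1 or 0.2 outside the myeloid-rich libraries, close to the rounding step of 0.1. Upstream, the Ras and Raf genes had a median log2 change of 0.19 and 0.17 in the 2 tables (7 genes), which was above the median of all genes.

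Ksr2, a scaffold that brings Raf, Mek and Erk together, had the largest positive log2 change of that list in both tables. In DMSO its level was 1.5, 12.9 and 4.0 in Eμ-TCL1 against 19.4, 26.0, 154.9, 58.3 and 214.5 in Eμ-TCL1;p53R172H/+. Under ibrutinib it stood at 1.3, 5.1 and 3.2 in Eμ-TCL1 against 26.6, 18.2, 11.6 and 12.8 in Eμ-TCL1;p53R172H/+. The genotypes did not overlap in either table, and the 3 highest libraries were the B-cell-rich Eμ-TCL1;p53R172H/+ ones in DMSO. The log2 change was 3.53 (standard error 0.89) in DMSO and 2.16 (standard error 0.42) in ibrutinib (limma, adjusted p = 0.386 and 0.191), with 3.92 and 1.56 over the libraries low in T-cell and myeloid markers.

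Among regulators of Ras, Rasgrp4, an exchange factor of myeloid cells, had a log2 change of -3.11 in DMSO (limma, adjusted p = 0.465), with its level reaching 90.9 in the myeloid-rich Eμ-TCL1 library against at most 3.9 in Eμ-TCL1;p53R172H/+. Rasal3, a Ras GTPase-activating protein of lymphocytes, was higher without overlap in ibrutinib, with a log2 change of 1.03 (limma, adjusted p = 0.252) and a range from 72.9 to 93.9 against one from 140.6 to 275, with the T-cell-rich replicate 1 the highest. In DMSO its level was 380.3 and 329.8 in the T-cell-rich libraries and at most 117.1 elsewhere. Nf1, another such protein, which was named after its values were seen, was lower without overlap in ibrutinib, with a log2 change of -1.38 (limma, adjusted p = 0.287), and had -0.82 with overlap in DMSO (limma, adjusted p = 0.664). With only the libraries low in T-cell and myeloid markers, the log2 change was -1.69 for Rasgrp4 in DMSO, 0.70 for Rasal3 and -0.93 for Nf1 in ibrutinib, and 0.0404 for Nf1 in DMSO.

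Of the 7 regulators of Ask1, 6 had a positive log2 change in DMSO and 4 in ibrutinib, with medians of 0.40 and 0.09. Over the libraries low in T-cell and myeloid markers the medians were 0.02 and 0.01. Traf6, an adaptor that can activate Ask1, was higher without overlap in both tables. Its level ranged from 45.6 to 55.8 in Eμ-TCL1 against from 62.1 to 89.7 in Eμ-TCL1;p53R172H/+ in DMSO, and from 50.4 to 60.9 and from 67.5 to 82.7 in ibrutinib, opposite in sign to Map3k5. The log2 change of Traf6 was 0.62 and 0.44 (limma, adjusted p = 0.493 and 0.343), with 0.60 and 0.41 over the libraries low in T-cell and myeloid markers. The Ask1 inhibitor thioredoxin (Txn1), named after its values were seen, had log2 changes of -0.49 and -0.29 (limma, adjusted p = 0.658 and 0.590), and 0.0219 and -0.0171 over those libraries.

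The 17 other MAP3K genes had a median log2 change of -0.07 in DMSO and -0.13 in ibrutinib. Map3k9, a mixed-lineage kinase, had a log2 change of -1.20 in DMSO (limma, adjusted p = 0.568), with genotypes that overlapped, and -0.91 over the libraries low in T-cell and myeloid markers. Taok3 was lower without overlap in ibrutinib at -0.49 (limma, adjusted p = 0.335), but had -0.07 in DMSO. At the MAP2K step, Map2k7, which acts on JNK, had log2 changes of 0.40 and 0.38 (limma, adjusted p = 0.645 and 0.470). Map2k6, which acts on p38, was lower without overlap in ibrutinib at -0.98 (limma, adjusted p = 0.346) and had 0.06 in DMSO. Over the same libraries low in those markers, Map2k7 had 0.0062 and 0.15, and Map2k6 had -0.20 in DMSO and -1.14 in ibrutinib.

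The 9 other MAP kinases had medians of -0.27 and -0.65, which were -0.20 and -0.14 over the libraries low in T-cell and myeloid markers. Mapk11, a p38 kinase, had log2 changes of -1.78 and -0.71 (limma, adjusted p = 0.624 and 0.673), and over the libraries low in T-cell and myeloid markers its mean level in DMSO was 68.6 in Eμ-TCL1 against 7.17 in Eμ-TCL1;p53R172H/+. Mapk4 was listed at 0 in all 9 Eμ-TCL1;p53R172H/+ libraries and at 4.7 and 4.2 in the myeloid-rich Eμ-TCL1 libraries, but at only 0.1 to 0.2 in the other 4 libraries of that genotype.

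Phosphatases and inhibitors of the cascade other than Dusp6 had a median log2 change of -0.16 in both tables, which was 0.18 and 0.0507 over the libraries low in T-cell and myeloid markers. Dusp5, a nuclear Erk phosphatase, had a level of 13.7, 26.0 and 33.9 in Eμ-TCL1 against of 59.5, 41.0, 39.7, 85.3 and 45.7 in Eμ-TCL1;p53R172H/+ in DMSO, where the genotypes did not overlap. Its log2 change was 1.14 in DMSO and 0.80 in ibrutinib (limma, adjusted p = 0.505 and 0.389). Spred2, which holds back Raf activation, had 0.88 and 0.66 (limma, adjusted p = 0.568 and 0.371) and did not overlap in ibrutinib. In the libraries low in T-cell and myeloid markers, 6 of 14 phosphatases and inhibitors were higher without overlap in DMSO and 0 lower, beside 16.5% and 16.2% of all genes. In ibrutinib 5 of 15 were higher and 1 lower, beside 15.2% and 18.7%. Dusp2, an Erk phosphatase of lymphocytes that was named after its values were seen, was among the higher ones in both tables. Its mean levels were 18.0 and 76.8 in DMSO and 3.05 and 19.3 in ibrutinib (limma, adjusted p = 0.130 and 0.0856).

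Genes that respond to Erk overlapped between genotypes in both tables over all libraries, with medians of -0.25 (7 genes) and -0.32 (6 genes) that turned to 0.70 and 0.67 over the libraries low in T-cell and myeloid markers. Fos was at 86.1 and 70.7 in the myeloid-rich Eμ-TCL1 libraries and at most 7.0 elsewhere, and Ccnd1 at 7.8 and 5.2 in the same 2 and at most 2.5 elsewhere. Egr1, named after its values were seen, had a level in DMSO of 26.4, 9.1 and 2.0 in Eμ-TCL1 against of 5.1, 19.8, 61.0, 189.5 and 130.6 in Eμ-TCL1;p53R172H/+. Its highest libraries were the B-cell-rich ones of the latter genotype, and Dusp6 was not high in all of them, with 9.3 in replicate 4, where Egr1 was highest. In the libraries low in T-cell and myeloid markers, 3 of 7 Erk-responsive genes were higher without overlap in DMSO and 4 of 6 in ibrutinib, beside 16.5% and 15.2% of all genes, and 0 were lower, beside 16.2% and 18.7%. For Egr1 the log2 change over all libraries was 2.28 in DMSO (limma, adjusted p = 0.639) and -0.46 in ibrutinib (limma, adjusted p = 0.887). In those low in T-cell and myeloid markers it was 4.40 in DMSO (limma, adjusted p = 0.115) and 1.48 in ibrutinib (limma, adjusted p = 0.420), so the direction in ibrutinib turned.

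Kinases activated by MAP kinases had medians of -0.47 in DMSO and -0.59 in ibrutinib (10 genes), below those of all genes. Over the libraries low in T-cell and myeloid markers these medians were -0.28 and -0.09. Mknk1 had a log2 change of -0.64 in DMSO (limma, adjusted p = 0.560) and -0.35 there without the T-cell-rich and myeloid-rich libraries, and Rps6ka5 was lower without overlap in ibrutinib at -0.60 (limma, adjusted p = 0.313). The 5 genes that link the B-cell receptor to the cascade (Syk, Btk, Blnk, Plcg2 and Prkcb) were all negative in both tables, with medians of -1.59 and -1.90, though their genotypes overlapped in DMSO. In ibrutinib 4 of the 5 were lower without overlap, beside 5.97% of all genes. Syk had log2 changes of -2.28 and -2.46 (limma, adjusted p = 0.629 and 0.430) and Prkcb -0.62 and -1.17 (limma, adjusted p = 0.724 and 0.347). Without the T-cell-rich and myeloid-rich libraries, Syk had -1.21 and -1.94 and Prkcb -0.13 and -1.01, and the medians of the 5 genes were -0.41 and -1.26. Of the 5, 4 were then lower without overlap in DMSO and 5 in ibrutinib, beside 16.2% and 18.7% of all genes. Btk, the target of ibrutinib, was at 3.6 and 4.2 in the T-cell-rich Eμ-TCL1;p53R172H/+ libraries in DMSO but at 67.3 to 83.2 in the other 3, next to 64.2 to 95.4 in Eμ-TCL1. In ibrutinib the Btk level was 1.4, 22.3, 44.0 and 31.3 in Eμ-TCL1;p53R172H/+ against 60.3, 89.1 and 44.4 in Eμ-TCL1, lower without overlap but by a small gap. B-cell and T-cell markers thus moved with these genes, and their part in the changes was not tested.

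**Figure D5:**
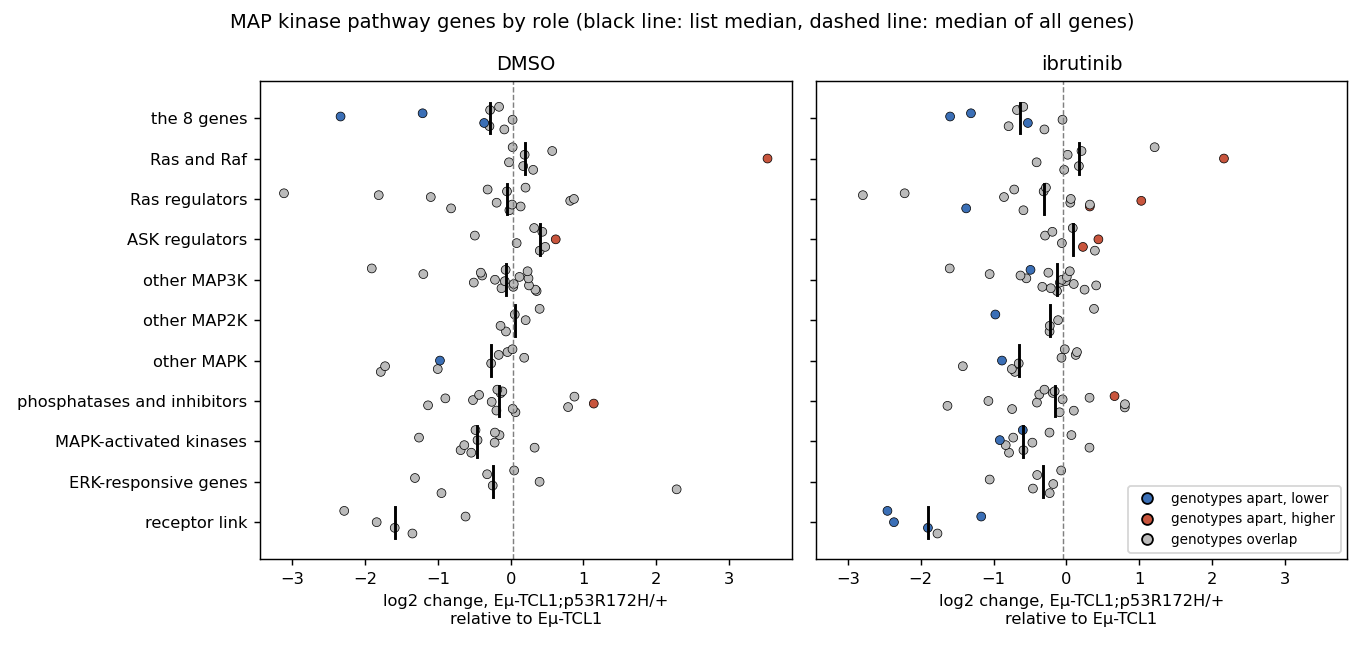
Log2 change of each gene in Eμ-TCL1;p53R172H/+ relative to Eμ-TCL1 in DMSO and ibrutinib, grouped by role (1 point a gene; blue, genotypes apart and lower; red, apart and higher; grey, overlapping; black line, median of the list; dashed line, median of all genes). The 8 genes have medians of -0.29 and -0.64, and the receptor link genes have the lowest medians of all lists, -1.59 and -1.90, though single genes of other lists, such as Rasgrp4 at -3.11 in DMSO, lie farther left than any of them.

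Promoters were searched for the p53 consensus decamer, the element of which a p53 binding site holds a pair, on either strand of the 250 bases before the transcription start. RefSeq promoters (GRCm38.p6) were matched for 6 of the 8 genes, all but Map3k15 and Mapk3, and of these Map2k1 and Map2k2 held a match, as did 7.13% of all 32851 promoters. The stretches around the matches are printed because the 2 genes encode the paired Mek kinases, of which Map2k1 did not overlap between genotypes and Map2k2 did. The capitals mark the match, which lies 121 bases before the start in Map2k1 and 230 bases before it in Map2k2. The Map2k1 stretch is at chr9:64253697-64253746 on the minus strand and the Map2k2 stretch at chr10:81105665-81105714 on the plus strand. A match of letters is a description of the sequence and not a binding site.
Map2k1: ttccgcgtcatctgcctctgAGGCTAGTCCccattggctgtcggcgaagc
Map2k2: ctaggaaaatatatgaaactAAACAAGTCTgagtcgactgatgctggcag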

How the data were processed

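Reads from the 15 libraries were aligned by the authors with TopHat2 2.0.12 and SAMtools 0.1.19 to GRCm38 and counted per gene of GENCODE M2 with HTSeq-count, genes under 0.5 CPM were removed, and edgeR was used to scale the counts to an effective library size. The deposited signal values are these normalized CPM, rounded to 0.1, in 1 table per treatment with its own factors. Column sums ranged from 756625 to 1359650, and mt-Rnr2 took 3.29% to 34.7% of them. The sequencing depth is unknown and whole reads could not be recovered, so no counting error is given and no test of counts was run.

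The genotypes were compared within each table, and the interaction over genes in both, with limma 3.58.1 (lmFit, eBayes with trend) in R 4.3.3 on log2(value + 1), with Benjamini-Hochberg adjustment over all genes. This was tested on simulated data. A two-sided exact permutation test was used for ratios and single values. The 8 genes, the lists and the tests were chosen with earlier results of these data known. From each list, the gene with the lowest p in DMSO and that with the lowest p in ibrutinib were named, besides measured genes overlapping exons of the 8 and, for Map3k15, Map3k6 and Dusp6, the 5 genes most like each. Genes named outside this rule are marked as such. Uchl4 within Map2k1 and Fth-ps2 within Braf were also measured, but overlap no exon of these 2 genes and are not described. Some genes of the lists, the marker set and the planned ratio are not reported here.

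Results were recomputed with a pseudocount of 0.1 or 5, with genes of mean 5 or more, after quantile normalization, with quality weights per sample, with sex as a covariate, with a replicate block, and with each sample left out. Restriction to libraries with summed T-cell and summed myeloid markers of at most 2000 each, or to female libraries with Xist over 100, was chosen after seeing the data. Exon lengths are those of the merged exons of all transcripts of a gene in GENCODE M21, whereas the counts were made on GENCODE M2. Figures were drawn with matplotlib 3.10.9.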

Additional observations from a re-analysis of the deposited data

How the results depend on the processing

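Of 286 recomputed values for 17 log2 changes (16 genotype changes of the 8 genes and the interaction of Map3k15), 243 kept their direction and their side of the threshold, 39 changed sign, 4 passed the threshold and 0 lost it. Map3k15, Map3k5 and Map2k1 kept a negative log2 change in both tables under every alternative run, from -2.62 to -1.67 for Map3k15 in DMSO and from -1.88 to -1.28 in ibrutinib, from -1.49 to -0.94 and from -1.71 to -1.04 for Map3k5, and from -0.43 to -0.25 and from -0.64 to -0.39 for Map2k1. The adjusted p over these alternatives (limma) ran from 0.0055 to 0.7595 for Map3k15 in DMSO and from 0.0369 to 0.9999 in ibrutinib, and from 0.00772 to 0.7595 for Map3k5 in DMSO. With sample quality weights, Map3k15 in DMSO (-2.16, adjusted p = 0.0055) and in ibrutinib (-1.74, adjusted p = 0.0369) and Map3k5 in DMSO (-1.26, adjusted p = 0.00772) passed the threshold by limma, as did Map3k15 in ibrutinib without Eμ-TCL1 replicate 1.

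The number of genes past the threshold in DMSO, 2 over all libraries, was 6 with a pseudocount of 5, 803 with sample quality weights, 30 with sex as a covariate, 12 over the libraries low in T-cell and myeloid markers and 1 over female libraries, and it ran from 0 (without Eμ-TCL1 replicate 3) to 61 (without the myeloid-rich Eμ-TCL1 replicate 2) when 1 library was left out, with 5 without Eμ-TCL1;p53R172H/+ replicate 4. In ibrutinib the number, 0 over all libraries (limma, with 1973 genes at an unadjusted p under 0.05), was 28 with sample quality weights and ran from 0 to 24 when 1 library was left out, with 24 when this was Eμ-TCL1 replicate 1 and 5 when it was Eμ-TCL1;p53R172H/+ replicate 5. With the replicate block it was 0 in both tables. Same-numbered libraries of the 2 genotypes deviated together by correlations from 0.05 to 0.25 in DMSO and from -0.17 to -0.05 in ibrutinib, so the numbers do not pair them. The cause of these differences was not tested.

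The other changes of sign were in genes far from the threshold. In DMSO, with sample quality weights the log2 change was 0.56 for Map3k6, 0.68 for Mapk3, 0.68 for Braf and 0.19 for Dusp6. With sex as a covariate, and equally over female libraries, it was 0.016 for Mapk3 and 0.84 for Dusp6. Over the libraries low in T-cell and myeloid markers it was 0.71 for Map3k6, 0.63 for Mapk3, 0.50 for Braf and 0.55 for Dusp6, with the replicate block -0.20 for Map2k2 and 0.0857 for Braf, and after quantile normalization -0.0163 for Map2k2. In ibrutinib, it was 0.0226 for Mapk3 and 0.0196 for Braf with sample quality weights, 0.0762 for Map2k2 after quantile normalization and 0.29 for Map2k2 with sex as a covariate or over female libraries. With low T-cell and myeloid markers it was 0.0594 for Map3k6, 0.17 for Mapk3, 0.0051 for Map2k2 and 0.0667 for Braf. When 1 library was left out, the log2 change in DMSO ran from -0.66 to 0.36 for Map3k6, from -0.64 to 0.49 for Mapk3, from -0.12 to 0.35 for Map2k2, from -0.51 to 0.51 for Braf and from -0.90 to 0.0712 for Dusp6, with the highest value without Eμ-TCL1 replicate 2 for all but Map2k2. In ibrutinib it ran from -1.06 to 0.0289 for Map3k6, from -1.08 to 0.10 for Mapk3, from -0.17 to 0.0897 for Map2k2, from -0.58 to 0.0418 for Braf and from -1.48 to -0.20 for Dusp6, with the highest without Eμ-TCL1 replicate 1 for all but Map2k2. Map3k6 has no value under a mean of at least 5. The depth behind the levels is unknown, and 0.1, the rounding step, is close to the levels of Map3k6 and Mapk4.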
